A study of Schmidtea mediterranea with 8 samples.

Results

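AGAT-1 (transcript SMED30018353) and vim-3 (transcript SMED30024865) mark late steps of the epidermal lineage in the planarian flatworm Schmidtea mediterranea. Both were picked by transcript identifier, and they are 2 of the 17882 transcripts in the expression table. RNA was sequenced from adult worms whose dissociated cells were stained with the DNA dye Hoechst and sorted by flow cytometry into X1 and Xins, with 4 libraries each. X1 cells disappear when worms are irradiated, and most of them are neoblasts, the dividing stem cells of the animal. Xins cells survive irradiation, and most of them have left the cell cycle. The labels give no RNAi, drug or irradiation treatment for either fraction, and the animals of the study were the asexual CIW4 strain. Nothing in the labels ties the replicates to separate animals or sorts, so p-values measure only the spread between these libraries.

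The planarian epidermis is a single cell layer with no dividing cells of its own, and it is renewed from neoblasts deeper in the body. Daughter cells leave the cell cycle, pass through an early progeny state marked by prog-1 and a late progeny state marked by AGAT-1, and then move outward into the epidermis. AGAT-1 encodes an L-arginine:glycine amidinotransferase, an enzyme that in vertebrates starts creatine synthesis by moving the amidino group of arginine onto glycine, which yields guanidinoacetate and ornithine. vim-3 encodes an intermediate filament-like protein, of the kind that builds the internal scaffold of animal cells. In the tissue staining of the study, vim-3 was scored as epidermal and overlapped little with AGAT-1.

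The probes for both genes were made from cDNA amplified with the primers below. They are shown because they tie each gene name to a defined stretch of transcript. Each is written 5′ to 3′, and the capitals mark the part that pairs with the gene. The leading 13 bases, which were shared by 145 of the 147 forward primers and 146 of the 147 reverse primers in the primer table, are left off.
AGAT-1 forward: GGATTTCCACCGGTTTTCTGTG
AGAT-1 reverse: AATTGACACGATGTAAGCAGTG
vim-3 forward: CGCAGTCAAAACTACGAAACAAG
vim-3 reverse: ATTTAGCAAGGTTTCTAGGCCG

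Levels are in RPKM, reads scaled to transcript length and library size, as deposited. Whole read numbers could be recovered from the steps of these values and came to 14323705 to 15523242 per library. Libraries of one fraction were alike, with Pearson correlations of log2(RPKM + 1) across transcripts of 0.974 to 0.986 within X1 and 0.966 to 0.979 within Xins, against 0.582 to 0.703 between fractions. The sort matched its labels by neoblast markers. By protein hit they encode Piwi-like proteins and PCNA, the sliding clamp of DNA replication. All 4 were higher in X1, with summed levels of 4178 to 4781 RPKM in X1 libraries and 297 to 495 RPKM in Xins libraries. Tests were made with limma on log2(RPKM + 1) over the 15563 transcripts with a mean of at least 1 RPKM. At an adjusted p under 0.05, 77.2% of them differed between the fractions, 41.7% lower and 35.5% higher in X1, and the median difference over all of them was -0.11.

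AGAT-1 was at a low level in every X1 library and among the most abundant transcripts of Xins. Its level was 2.80, 1.89, 5.70 and 5.78 RPKM in X1 replicates 1 to 4, against 777, 803, 763 and 823 RPKM in Xins replicates 1 to 4. These values rested on 59, 37, 106 and 96 reads in X1 and on 17066 to 19123 reads per library in Xins, over a recovered transcript length of 1408 nucleotides. Every X1 library lay far below every Xins library, a separation in that direction shown by 38.7% of transcripts tested. The means were 4.04 ± 2.00 RPKM in X1 and 791 ± 26.97 RPKM in Xins (SD, n = 4 each). On the log2 scale, X1 minus Xins was -7.39 with an SE of 0.25 (limma adjusted p of 3.7e-10), and 0.315% of transcripts tested had a more negative one. Because each library pools many cells, fewer AGAT-1 cells and less AGAT-1 RNA per cell cannot be told apart.

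vim-3 was low in both fractions and lower in X1. It was at 0.272, 0.162, 0.753 and 0.919 RPKM in X1 replicates 1 to 4, against 2.32, 4.73, 3.84 and 4.32 RPKM in Xins replicates 1 to 4. Every X1 library lay below every Xins library, as was the case for 38.7% of transcripts tested. The gap between the highest X1 library (0.919 RPKM) and the lowest Xins library (2.32 RPKM) was narrow beside that of AGAT-1. The reads were few: 9, 5, 22 and 24 in X1 and 86, 167, 135 and 158 in Xins, over a recovered length of 2214 nucleotides. For X1 replicate 2, the exact Poisson 95% interval ran from 1.62 to 11.7 reads, and it covers counting error only. The means were 0.527 ± 0.367 RPKM in X1 and 3.80 ± 1.05 RPKM in Xins (SD, n = 4 each). On the log2 scale this was a difference of -1.66 with an SE of 0.23 (limma adjusted p of 3.1e-05), and 21.5% of transcripts tested had a more negative one. At this level the added constant sets much of the size, and the difference was -2.81 with 0.1 RPKM added and -0.67 with 5 RPKM added, each past the threshold. vim-3 reached the minimum of 1 RPKM on the strength of its Xins libraries, since no X1 library did so.

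**Figure D1:**
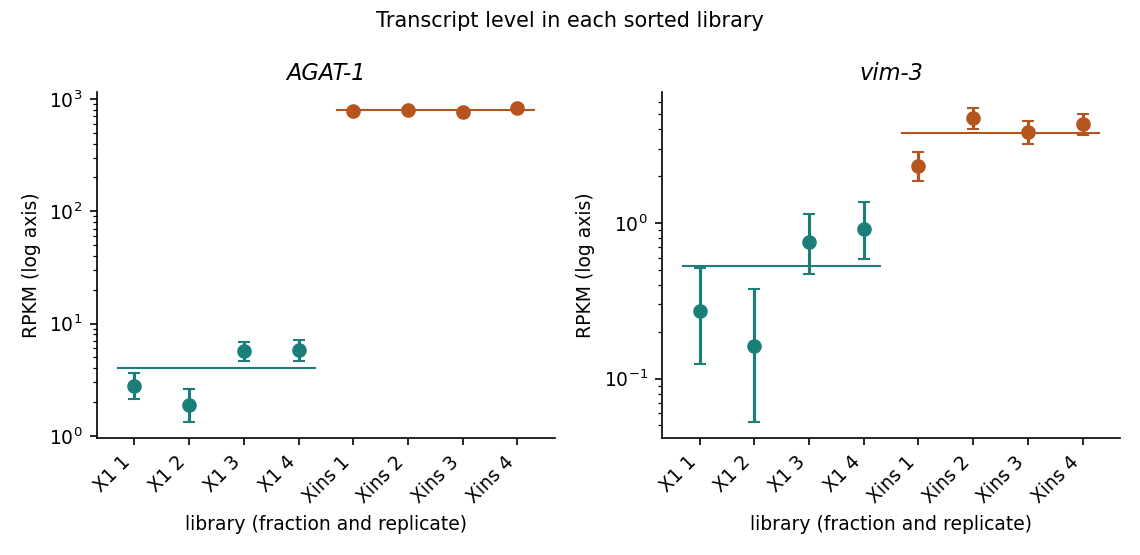
RPKM on a log axis of AGAT-1 (left) and vim-3 (right) in each library, X1 replicates 1 to 4 and then Xins replicates 1 to 4. Points are single libraries, error bars are exact Poisson 95% intervals of the recovered reads, and lines are fraction means, which were 4.04 RPKM in X1 and 791 RPKM in Xins for AGAT-1 and 0.527 RPKM in X1 and 3.80 RPKM in Xins for vim-3.

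The share of its Xins level that a transcript kept in X1 set the 2 genes apart. The mean X1 level of AGAT-1 was 0.511% of its mean Xins level, and the single X1 libraries stood at 0.354%, 0.238%, 0.721% and 0.731%. The mean X1 level of vim-3 was 13.8% of its mean Xins level, and the single X1 libraries stood at 7.15%, 4.26%, 19.8% and 24.2%. The lowest vim-3 share was above the highest AGAT-1 share. Among 29 candidate genes of the in situ screen, 24 kept a larger share in X1 than AGAT-1 did and 8 a larger share than vim-3. By mean Xins level, AGAT-1 took place 2 of these 29 and vim-3 place 27.

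The same contrast was tested as the ratio of AGAT-1 to vim-3 inside each library, a quantity that any scaling common to a library leaves almost untouched. AGAT-1 RPKM was 10.3, 11.6, 7.58 and 6.29 times vim-3 RPKM in X1 replicates 1 to 4, against 334, 170, 199 and 190 times in Xins replicates 1 to 4. With 0.1 RPKM added to both genes, the log2 ratio averaged 2.80 ± 0.20 in X1 and 7.71 ± 0.42 in Xins (SD, n = 4 each). The difference of -4.91, or 30.2-fold, reached the smallest p, 0.0286, that an exact two-sided permutation of 4 against 4 libraries allows. The ratio was highest in Xins replicate 1, where vim-3 was lowest, and without that library the difference was -4.71. The size depends on the constant, since vim-3 was under 1 RPKM in every X1 library. With 0.1 RPKM added, X1 minus Xins was -7.72 for AGAT-1 and -2.81 for vim-3. With 1 RPKM added, these were further apart, at -7.39 and -1.66. Without a constant, the SD of the log2 ratio was 0.41 in X1 and 0.43 in Xins.

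Position among all transcripts gave a view that needs no scaling between libraries. In X1, AGAT-1 exceeded 43.3%, 38.0%, 54.2% and 54.2% of the transcripts in the table in replicates 1 to 4, whereas in Xins it exceeded 98.9% to 99.1%. Its rank ran from 8188 to 11088 of 17882 in X1, and from 164 to 205 in Xins. AGAT-1 thus stood near the middle of the X1 transcripts and in the top few percent of the Xins transcripts. vim-3 exceeded 15.8%, 13.04%, 24.4% and 26.6% of transcripts in X1 replicates 1 to 4, and 28.0%, 42.1%, 39.2% and 40.3% in Xins replicates 1 to 4. Its ranks were 13125 to 15551 in X1 and 10354 to 12878 in Xins, so the highest X1 library and the lowest Xins library were close together. The mean share below differed by -51.6 percentage points for AGAT-1 (47.4 ± 8.11% in X1 and 99.0 ± 0.111% in Xins, SD, n = 4 each) and by -17.4 points for vim-3 (19.9 ± 6.57% in X1 and 37.4 ± 6.39% in Xins, SD, n = 4 each), each at the smallest exact two-sided permutation p of 0.0286. When vim-3 was ranked only among transcripts with a mean of at least 1 RPKM, its difference was -14.2 points and the exact permutation p was 0.0571.

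**Figure D2:**
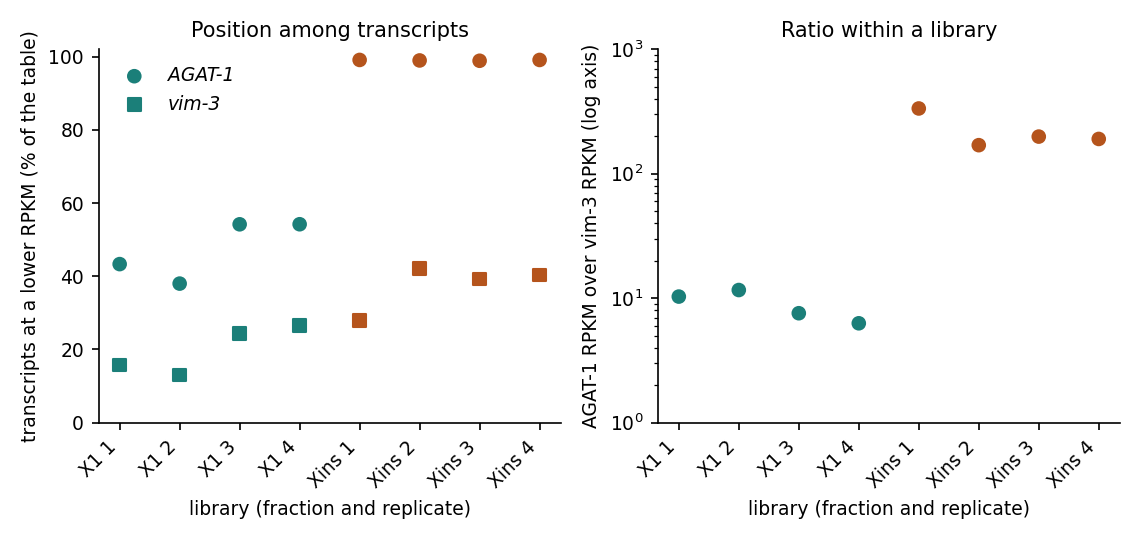
Left, percentage of the 17882 transcripts at a lower RPKM than AGAT-1 (circles) or vim-3 (squares) in each library. Right, AGAT-1 RPKM over vim-3 RPKM in each library on a log axis. X1 libraries (green) stand left of Xins libraries (orange), and the ratio was 6.29 to 11.6 in X1 against 170 to 334 in Xins.

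How the 2 transcripts varied among libraries of one fraction also differed. In X1, the coefficient of variation was 49.4% for AGAT-1 and 69.6% for vim-3. In Xins it was 3.41% for AGAT-1 and 27.7% for vim-3, where vim-3 had at most 167 reads. Both transcripts were higher in X1 replicates 3 and 4 than in replicates 1 and 2, and this order did not depend on the scaling in the RPKM values. Of every 1000000 recovered reads, AGAT-1 took 4.04, 2.44, 7.31 and 6.70 in X1 replicates 1 to 4, and vim-3 took 0.616, 0.329, 1.52 and 1.68. The same order was present in 24.2% of all transcripts tested, and in 57.9% of the 655 transcripts lower in X1 by more than 4 on the log2 scale. It was found for 27 of 57 transcripts with an AGAT-1 mesenchymal staining pattern, for 7 of 9 with an epidermal pattern and for 0 of 4 neoblast markers. Transcripts stained in the gut followed it in 12 of 22 cases, with summed levels of 116, 119, 163 and 174 RPKM in X1 replicates 1 to 4 against 263 to 445 RPKM in Xins libraries. The part of other differentiated cells in the X1 levels was not tested.

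AGAT-1 has several sister transcripts with the same best protein hit, mitochondrial glycine amidinotransferase. Of these 4 sisters, 3 were tested, and all 3 were lower in X1, against 41.7% of all transcripts, with a median log2 difference of -5.52 against -0.11 for all transcripts. SMED30009513 was the closest in level to AGAT-1, at 1.86, 2.31, 6.89 and 7.76 RPKM in X1 replicates 1 to 4 and 731, 1078, 876 and 1067 RPKM in Xins replicates 1 to 4. It kept 0.502% of its Xins level in X1, nearly the share of AGAT-1, and it differed by -7.52 on the log2 scale (SE 0.33, limma adjusted p of 2.0e-09). The candidate gene gatm averaged 4.21 RPKM in X1 libraries and 226 RPKM in Xins libraries (log2 difference -5.49) and kept 1.86%. SMED30019154 was at 0.046, 0, 0.630 and 1.41 RPKM in X1 replicates 1 to 4 and averaged 65.4 RPKM in Xins libraries (-5.52). Its X1 mean of 0.521 RPKM was 0.225 RPKM without X1 replicate 4, so it reached the minimum level for testing through its Xins libraries. The remaining sister, SMED30006337, averaged 0.031 RPKM in X1 and 1.02 RPKM in Xins and fell under the minimum level for testing. By summed RPKM, AGAT-1 and SMED30009513 held most of the amidinotransferase signal of Xins. Reads from near-identical stretches may have been split between sister transcripts, and the values of single members are uncertain to that extent.

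Arginine is a substrate and ornithine a product of the amidinotransferase reaction, and a list of 12 transcripts covered enzymes of arginine, ornithine and polyamine metabolism, an arginine transporter and an antizyme inhibitor. All 12 were called lower in X1, against 41.7% of all transcripts, and the log2 differences ran from -5.05 to -1.50 with a median of -2.54. For 3 of them, odc-1, SMED30033621 and SMED30005229, the X1 mean was under 1 RPKM, so that they reached the minimum level through their Xins libraries, as vim-3 did. Argininosuccinate synthase (SMED30011140) and argininosuccinate lyase (SMED30030034), which form arginine in the urea cycle of vertebrates, were at 13.8 and 60.5 RPKM in X1 against 74.4 and 208 RPKM in Xins. Ornithine decarboxylase opens polyamine synthesis, and the 3 transcripts with that hit had the most negative differences of the list. Among them odc-1 was at 0.270, 0.193, 0.153 and 0.741 RPKM in X1 replicates 1 to 4 and at 46.0, 42.3, 46.7 and 36.6 RPKM in Xins replicates 1 to 4 (log2 difference -5.05, SE 0.18, limma adjusted p of 5.0e-10). It kept 0.791% of its Xins level in X1, and its X1 mean of 0.339 RPKM was 0.205 RPKM without X1 replicate 4. odc-1 is close to AGAT-1 in the share kept, with which it shares the mesenchymal staining pattern. SMED30014918 and SMED30033621 were at 1.25 and 0.846 RPKM in X1 against 67.2 and 31.5 RPKM in Xins. Antizyme inhibitor 2 (SMED30034746), which in mammals shields ornithine decarboxylase from breakdown, averaged 1.94 RPKM in X1 and 33.3 RPKM in Xins. Ornithine aminotransferase (SMED30012193 and SMED30023510), which links ornithine to glutamate and proline metabolism, was at 11.5 and 3.78 RPKM in X1 against 74.2 and 26.6 RPKM in Xins. Ornithine carbamoyltransferase (SMED30028596), the urea cycle enzyme that makes citrulline, averaged 4.85 RPKM in X1 and 18.4 RPKM in Xins. An arginine transporter of mitochondria (SMED30001325) averaged 1.25 RPKM in X1 and 14.6 RPKM in Xins. The 2 polyamine oxidase transcripts, SMED30005229 and SMED30002835, were at 0.085 and 1.48 RPKM in X1 against 2.71 and 5.98 RPKM in Xins.

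vim-3 belongs to a set of 6 transcripts with intermediate filament hits. The 4 transcripts with cytoplasmic filament hits were lower in X1, and the 2 with lamin hits, the filaments that line the nucleus, were higher, beside 41.7% lower and 35.5% higher among all transcripts tested. Of the 4, vim-3, SMED30002072 and SMED30026612 had an X1 mean under 1 RPKM and reached the minimum level through Xins. SMED30002072 and SMED30026612 share with vim-3 the best hit, a neurofilament protein. They kept 16.6% and 11.98% of their Xins level in X1, and their log2 differences were -1.67 (SE 0.26, limma adjusted p of 7.1e-05) and -1.94 (SE 0.31, limma adjusted p of 9.5e-05). SMED30014019, with a hit to ifb-1 of Caenorhabditis elegans and an epidermal staining pattern, kept 13.4%, with a difference of -2.41 (SE 0.37, limma adjusted p of 8.0e-05). Without X1 replicate 4, the X1 mean of SMED30026612 was 0.390 RPKM in place of 0.652 RPKM. The 3 shares lay around the 13.8% of vim-3. The Lamin-C hit SMED30010297 was at 370, 328, 326 and 287 RPKM in X1 replicates 1 to 4 against 4.83, 6.67, 11.6 and 5.32 RPKM in Xins replicates 1 to 4 (log2 difference 5.41, SE 0.22, limma adjusted p of 1.1e-09). Its X1 libraries all lay above its Xins libraries, as was the case for 32.5% of transcripts tested. The Lamin-L(III) hit SMED30014980 averaged 271 RPKM in X1 libraries and 167 RPKM in Xins libraries, higher by 0.71 (SE 0.14, limma adjusted p of 6.5e-04). With a minimum mean of 5 RPKM, 1 of the lower filament transcripts was still tested, and vim-3 was not.

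The cytoplasmic filament transcripts were also alike in which Xins library was lowest. vim-3 was at 2.32 RPKM in Xins replicate 1 and at 3.84 to 4.73 RPKM in the other Xins libraries. SMED30002072 was at 2.83 RPKM in that library and 4.62 to 5.14 RPKM in the others, SMED30026612 at 2.28 RPKM and 6.32 to 6.70 RPKM, and SMED30014019 at 6.46 RPKM and 12.6 to 13.3 RPKM. AGAT-1 did not show this, with 777 RPKM in Xins replicate 1 inside the range of the other libraries. Xins replicate 1 was the lowest Xins library for 5 of the 6 filament transcripts, the fifth being the Lamin-C hit, and for 22.8% of all transcripts tested. It was also the lowest for 3 of 4 neoblast markers, 2 of 4 amidinotransferases tested, 3 of 9 epidermal, 5 of 18 gut and 5 of 57 AGAT-1 mesenchymal transcripts, and for 0 of the 12 arginine and polyamine transcripts, so the filament transcripts were not alone in this. The 3 transcripts that share a neurofilament hit may also share reads, so their agreement is not that of 3 separate measurements.

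**Figure D3:**
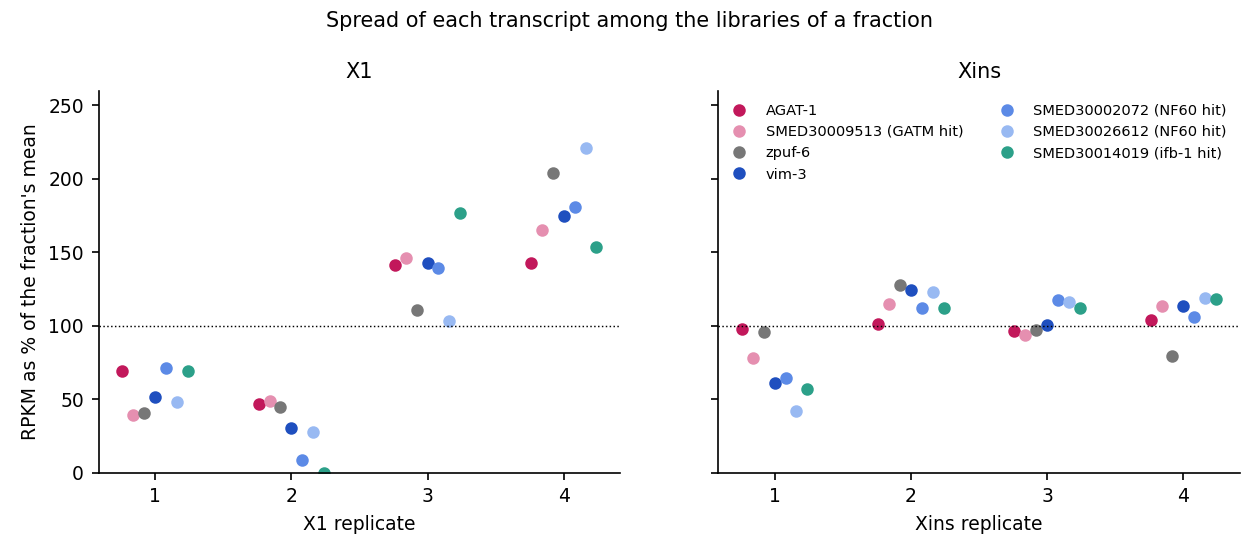
RPKM of each library as a percentage of its fraction's mean, for X1 (left) and Xins (right), with 1 point per transcript and library. AGAT-1 and SMED30009513 (GATM hit, the amidinotransferase), zpuf-6, vim-3 and 3 other filament transcripts (NF60, neurofilament hit, and ifb-1 hit) lay lower in X1 replicates 1 and 2 than in 3 and 4, and in Xins replicate 1 the 4 filament transcripts lay lowest, vim-3 at 2.32 RPKM.

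zpuf-6 and egr-5, named markers of the same lineage, kept shares between those of AGAT-1 and vim-3. Not every candidate of the screen did so. Below AGAT-1, zpuf-3 kept 0.310%, pla2 0.395% and cyp3142A1 0.454%, and zpuf-2 had 0 reads in X1. Over all X1 libraries pla2 had only 19 reads and cyp3142A1 only 29. The X1 mean of pla2 was 0.631 RPKM, and 0.226 RPKM without X1 replicate 4. That of cyp3142A1 was 0.316 RPKM, and 0.202 RPKM without X1 replicate 3. Of the 8 candidates above vim-3, litaf kept the least, 17.9%, and zfp-2 the most, 201%. All of these were named after their values were seen. zpuf-6, stained in late progeny and in epidermal cells, was at 3.02, 3.33, 8.18 and 15.1 RPKM in X1 replicates 1 to 4 against 463, 617, 470 and 383 RPKM in Xins replicates 1 to 4, and kept 1.53% of its Xins level. Its X1 mean was 7.40 RPKM, and 4.84 RPKM without X1 replicate 4. egr-5, which encodes a zinc-finger regulator of transcription, kept 4.79%, with 2.46 ± 0.632 RPKM in X1 against 51.3 ± 3.95 RPKM in Xins (SD, n = 4 each). In order of the share kept, the 4 lineage genes were AGAT-1, zpuf-6, egr-5 and vim-3. Their mean Xins levels fell in the same order, at 791, 483, 51.3 and 3.80 RPKM, so level and share cannot be told apart among these 4 genes. Other candidates did not all keep to that order. litaf averaged 264 RPKM in Xins and kept 17.9%, while traf-4 averaged 2.47 RPKM and kept 3.32%, both named after their values were seen. A link between level and share was not tested. The shares of neighbours in this order, taken over X1 libraries, overlapped for AGAT-1 (0.238% to 0.731%) and zpuf-6 (0.624% to 3.12%) and for egr-5 (3.50% to 6.30%) and vim-3 (4.26% to 24.2%), but not for zpuf-6 and egr-5.

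Grouped by staining pattern, transcripts stained like AGAT-1 in the mesenchyme were lower in X1 in 56 of 57 cases, beside 41.7% of all transcripts tested. Their median log2 difference was -5.49 and their median share kept was 1.28%. The study picked the transcripts it stained from those lowered by RNAi of chd4 or p53, which depletes AGAT-1 cells. All transcripts tested are therefore not a like background for a staining pattern. Of 9 transcripts with an epidermal component in their pattern, vim-3 among them, 7 were lower and 1 was higher in X1, beside 41.7% lower and 35.5% higher among all tested, with a median of -2.55 and a median share kept of 5.63%. Gut-stained transcripts of the same screen were also mostly lower, in 15 of 18 cases tested, with 3 higher. In X1 the mean was under 1 RPKM for 20 of the 57, 3 of the 9 and 10 of the 18, which reached the minimum level through Xins. The mesenchymal and epidermal lists overlap, since several transcripts were stained in both places. zpuf-5 (-6.37), the Calumenin-A hit SMED30003044 (-4.59) and the Rab-27B hit SMED30031862 (-4.12) had more negative differences than vim-3, as did the hits to cytochrome P450 2B4 (SMED30028574, -2.81) and to the lysosomal protease cathepsin L1 (SMED30023109, -2.55). The ASPM hit SMED30006065, whose vertebrate counterpart works at mitotic spindle poles, went the other way, with 3.08 RPKM in X1 and 0.088 RPKM in Xins (1.89). acsl-2, a fatty acid-activating enzyme stained in gut and epidermis, averaged 40.4 RPKM in X1 libraries and 62.0 RPKM in Xins libraries and missed the threshold (-0.52, limma adjusted p of 0.088).

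**Figure D4:**
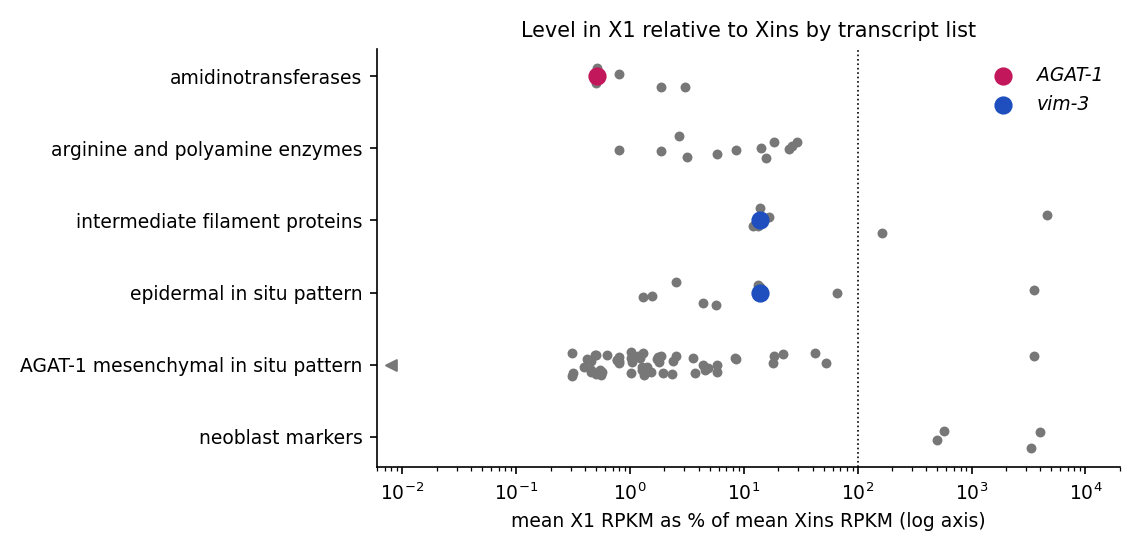
Mean X1 RPKM as a percentage of mean Xins RPKM, on a log axis, for each transcript of 6 lists, with AGAT-1 in magenta, vim-3 in blue and equal levels at the dotted line. AGAT-1 stands at 0.511%, beside 0.502% to 3.01% for its sister amidinotransferases. vim-3 stands at 13.8%, beside 11.98% to 16.6% for the other cytoplasmic filament transcripts. The arrowhead is zpuf-2, with 0 reads in X1.

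The transcripts closest to each gene over all 8 libraries were found by the root mean square difference in log2(RPKM + 1), which asks for the same level and not only the same shape. AGAT-1 had few companions, with 10 transcripts within 0.5 and 69 within 1. The nearest were SMED30029432 (0.23), SMED30015168 (0.31), SMED30009513 (0.31), SMED30008921 (0.37) and SMED30024144 (0.39). SMED30009513, an amidinotransferase, was the only one of these on a list used here. Protein hits were looked up only for listed transcripts, so those of the others are not known here. SMED30029432 was at 2.14, 1.82, 6.12 and 3.67 RPKM in X1 replicates 1 to 4 against 817, 696, 736 and 804 RPKM in Xins replicates 1 to 4. vim-3 sat in a crowded range, with 562 transcripts within 0.5 and 3946 within 1. Its nearest were SMED30019923 (0.18), SMED30012641 (0.20), SMED30002072 (0.21), SMED30012487 (0.22) and SMED30010200 (0.23), and the third of these carries the same neurofilament hit as vim-3. Since low levels lie close together on this scale, a small distance to vim-3 picks out fewer features than a small distance to AGAT-1.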

How the data were processed

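Polyadenylated RNA of 4 X1 and 4 Xins libraries of sorted planarian cells was sequenced. The authors deposited a table of RPKM values for 17882 transcripts. The submitters' processing notes name CASAVA 1.8.2, Bowtie and edgeR, and the study's methods describe bowtie alignment to an assembled transcript set for its whole-worm RNAi libraries. Whether the sorted libraries were aligned in that way was not given in the sources used here. All 17882 rows came out as whole reads within 0.001 of a read in every library, once multiplied by a length per transcript and a size per library. These sizes were 0.823 to 1.15 times the recovered reads, so the deposited RPKM values were already scaled between libraries. For a row whose reads share a divisor only the smallest solution is known, and 44 rows had a recovered length under 200 nucleotides.

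limma 3.58.1 in R 4.3.3 was fitted to log2(RPKM + 1) with an empirical Bayes trend over the 15563 transcripts with a mean of at least 1 RPKM (2319 left out), X1 minus Xins, two-sided, with Benjamini-Hochberg adjustment and a threshold of 0.05. The fit was tested on simulated data. A log2 difference on this scale understates the change of low transcripts. The log2 ratio and the share of transcripts below a gene were compared with exact permutation tests in Python 3.11.15 with scipy 1.17.1. Alternatives were other constants added, filters, scalings, limma without a trend, limma-voom on recovered reads, a replicate block and leaving out each library. Named were both genes, zpuf-6, egr-5, every member of the amidinotransferase, arginine and polyamine, filament, neoblast marker and epidermal pattern lists, the 5 transcripts nearest to each gene and, from the cell type markers, the gut gene nkx-2.2. Protein hits, staining patterns and primers came from the study's tables. The genes and lists were chosen with earlier results of these data known.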

Additional observations from a re-analysis of the deposited data

Results flagged for a closer look

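In 80 groups of 4 libraries, 3 values stood apart from the other 3 libraries of their fraction by more than Dixon's 95% critical value, and chance gives about 1 such value in 20 groups. The ornithine aminotransferase hit SMED30012193 was at 15.0 RPKM in X1 replicate 4 and at 9.95 to 10.6 RPKM in the other X1 libraries. The neurofilament hit SMED30026612 was at 2.28 RPKM in Xins replicate 1 and at 6.32 to 6.70 RPKM in the other Xins libraries. The ifb-1 hit SMED30014019 was at 6.46 RPKM in Xins replicate 1 and at 12.6 to 13.3 RPKM in the other Xins libraries. vim-3 was also lowest in Xins replicate 1 but did not pass this criterion.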

How the results depend on the processing

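AGAT-1 and vim-3 stayed lower in X1 past the threshold in every alternative run. For AGAT-1 the log2 difference ran from -7.79 to -6.49 over 20 alternatives (highest limma adjusted p of 3.0e-08). For vim-3 it ran from -3.12 with limma-voom to -0.67 with 5 RPKM added over 19 alternatives (highest limma adjusted p of 0.0054, after quantile normalization, at -0.82), and it was not tested at a minimum mean of 5 RPKM. A minimum mean of 5 RPKM left 3708 transcripts lower in X1 in place of 6492, because fewer transcripts were tested. In the filament, epidermal and gut lists it left 1, 4 and 6 called lower, in place of 4, 7 and 15. Of all calls at that minimum, 54.2% were higher in X1. The share of calls higher in X1 was 45.9% as deposited and 57.2% after quantile normalization, while the median over all transcripts moved between -0.11 as deposited and 0.25 after quantile normalization, to -0.29 at a common sum and to -0.34 when sizes came from summed reads, a setting chosen after seeing the data. With 1 library left out, the difference in the log2 ratio of AGAT-1 to vim-3, at 0.1 RPKM added, ran from -5.03 to -4.71. For the share of transcripts below the gene it was -53.8 to -48.4 points for AGAT-1 and -20.6 to -15.1 points for vim-3. All were at an exact permutation p of 0.0571, the smallest for 4 against 3. The vim-3 difference was -14.2 points (exact permutation p of 0.0571) among transcripts with a mean of at least 1 RPKM. Correlations of same-numbered deviations were 0.27, -0.19, -0.12 and -0.02 for replicates 1 to 4. Only X1 replicate 1 correlated best with the Xins library of its own number. Whether same-numbered libraries came from a shared sort was not tested. With a replicate block the ratio difference was -4.91 with an exact sign-flip p of 0.125, the smallest for 4 pairs, and AGAT-1 (-7.39) and vim-3 (-1.66) stayed past the threshold. Of 34 other named genes, 32 kept their call in every alternative, while acsl-2 passed the threshold in 5 and nkx-2.2, a gut homeobox gene higher in X1 (0.91), missed it in 3. Most gut-stained transcripts went the other way from nkx-2.2. Of the 18 tested, 15 were lower and 3 higher in X1, beside 41.7% lower and 35.5% higher among all tested. For 10 of the 18 the X1 mean was under 1 RPKM, so they reached the minimum level through Xins. Their direction was thus largely set by the filter. vim-3 rested on 5 to 24 reads per X1 library, which limits the precision of its difference.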
